A study of Mus musculus with 48 samples.

Results

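The 10 genes described here make serine and glycine, break glycine down or carry these amino acids across membranes: Phgdh, Psat1, Psph, Shmt1, Shmt2, Srr, Gldc, Slc1a4, Slc6a9 and Slc7a10. They were matched by gene symbol to the Ensembl IDs of the deposited count files, and all 10 were found among the 47643 genes listed. RNA on ribosomes was collected from the dorsal hippocampus of Tg(Aldh1l1-eGFP/Rpl10a) JD130Htz mice, in which the astrocyte promoter of Aldh1l1 drives ribosomal protein L10a joined to eGFP, and an antibody to GFP pulled down the tagged ribosomes (translating ribosome affinity purification, TRAP). The groups were Astro, the tagged ribosomes of full astrocytes, and PAP, those of perisynaptic astrocytic processes, the fine astrocyte branches that lie against synapses. Both groups carry the transgene and neither was treated; age and sex are not given in the sources used here. Each of 3 animals gave 1 library per group, deposited as 8 technical replicates that were summed here, so 48 samples became 6 pooled libraries and n = 3 per group.

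In the brain, astrocytes are a main site of serine synthesis. Phgdh, Psat1 and Psph turn the glycolytic intermediate 3-phosphoglycerate into L-serine in consecutive steps. The hydroxymethyltransferases Shmt1, in the cytosol, and Shmt2, in mitochondria, convert serine to glycine and pass its side-chain carbon to folate. Serine racemase, Srr, makes D-serine, which together with glycine serves as co-agonist of NMDA-type glutamate receptors at synapses. Glycine and serine are moved across the plasma membrane by carriers such as the glycine transporter GlyT1 (Slc6a9), Asc-1 (Slc7a10) and ASCT1 (Slc1a4).

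The 3 sequences printed here are the 250 bases before the RefSeq transcription start (GRCm38.p6) of the hydroxymethyltransferase genes and of Slc7a10. They are shown because Shmt2 and Slc7a10 were the 2 genes that passed the test and Shmt1 is the cytosolic counterpart of Shmt2. They run 5′ to 3′ on the strand of the gene: Shmt1 at chr11:60811266-60811515 (minus strand), Shmt2 at chr10:127522445-127522694 (minus strand) and Slc7a10 at chr7:35186135-35186384 (plus strand). Capitals mark a CCAAT box on either strand, or GCGCATGCGC, the longest run of letters that the windows of Shmt2 and Slc7a10 share, which reads the same on both strands and is a core of the binding motif of the factor NRF1.
Shmt1: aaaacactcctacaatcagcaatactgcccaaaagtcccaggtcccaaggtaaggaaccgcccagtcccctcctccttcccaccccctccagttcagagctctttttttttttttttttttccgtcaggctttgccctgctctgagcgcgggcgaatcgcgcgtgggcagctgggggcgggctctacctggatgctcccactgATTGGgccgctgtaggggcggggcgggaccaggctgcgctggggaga
Shmt2: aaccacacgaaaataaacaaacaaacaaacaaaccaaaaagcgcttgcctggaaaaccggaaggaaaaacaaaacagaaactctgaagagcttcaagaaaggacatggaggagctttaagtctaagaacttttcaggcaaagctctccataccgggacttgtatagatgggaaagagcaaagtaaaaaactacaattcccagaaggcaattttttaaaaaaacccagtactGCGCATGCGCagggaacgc
Slc7a10: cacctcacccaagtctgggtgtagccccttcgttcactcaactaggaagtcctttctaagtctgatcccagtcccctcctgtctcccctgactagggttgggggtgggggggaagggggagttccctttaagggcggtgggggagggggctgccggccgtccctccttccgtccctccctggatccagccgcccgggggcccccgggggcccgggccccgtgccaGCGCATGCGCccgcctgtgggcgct
This core began 19 bases before the start of Shmt2 and 25 bases before that of Slc7a10, and was in no window of the other 8 genes. It was present in 0.782% of 32851 mouse promoter windows of this length; the run was chosen because these windows share it, so its presence in both genes is a description. A CCAAT box was in 6 of the 13 windows that the 10 genes have, 1 each of Phgdh, Psat1, Psph, Shmt1, Gldc and Slc1a4, against 33.8% of all windows. The C/EBP-ATF element TGATGNAA, searched on both strands, was in none of the 13 windows of the 10 genes and in 3.45% of all windows. None of these matches says whether a factor binds there.

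The pooled Astro libraries held 18707844 to 20293538 counts and the PAP libraries 1829962 to 2980984, so 3 counts stood for 0.987 to 1.54 CPM in PAP. CPM are counts scaled to a common total, here with TMM factors, which align library compositions. Across genes, Astro libraries correlated with one another at r = 0.941 to 0.955, PAP libraries at 0.524 to 0.554, and Astro with PAP libraries at 0.459 to 0.537. For genes over 3 counts in every library of a group the median ratio of the highest to the lowest library was 1.52 in Astro and 3.24 in PAP. Of 14 astrocyte marker genes, none was at 0 in all PAP libraries; 14 of 14 had a negative log2 fold change, the PAP libraries lay wholly under the Astro libraries for 13, and 5 were called lower (0 with the animal as a block), shares to be read beside those of all tested genes given further on. Their summed level was 31160 to 41190 CPM in Astro libraries and 4896 to 19230 CPM in PAP libraries. Neuron markers summed to 1046 to 1687 CPM in Astro and 514.3 to 1334 CPM in PAP, with 1 of 12 called higher, 1 called lower and none at 0 in all PAP libraries. The PAP libraries lay wholly above the Astro libraries for 2 of the 12 and wholly under them for 4, and with the animal as a block 0 were called. Among all tested genes, 5.92% were called higher and 15.4% lower, and PAP lay wholly above Astro for 10.9% and wholly under it for 35.1%. The numbers of genes called or lying apart in each marker list are to be read beside these shares. Oligodendrocyte lineage markers summed to 803.1 to 870.7 CPM in Astro and 473.7 to 969.8 CPM in PAP, with 0 of 9 called. Cx3cr1, P2ry12, Tmem119, Aif1 and Itgam of the 7 microglia markers, and Cldn5, Pdgfrb and Rgs5 of the 7 endothelial and mural markers, had 0 counts in all PAP libraries. The sums of these lists stayed at or under 42.61 CPM in every library. Of the tested markers, 3 of 5 for microglia and 1 of 2 for endothelial and mural cells were called lower (0 of either list with the animal as a block). The called ones had 0 counts in PAP and passed the count filter through the Astro libraries alone, so they could only be called lower. The part of these markers in the results was not tested, and markers of other cell types, such as lymphoid cells, were not examined. In such pulldowns, fewer processes captured and less RNA per process cannot be told apart.

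Between the compartments, the mean level of Shmt2 rose 8.97-fold in PAP, that of Slc7a10 was 4.3-fold lower, and the other 8 genes did not pass the test. The test was edgeR's quasi-likelihood test of PAP against Astro across 14618 genes (p adjusted by Benjamini-Hochberg, threshold 0.05), and every adjusted p in this text comes from edgeR unless another tool is named. Thus 1 of 10 genes was called higher and 1 lower, beside 5.92% and 15.4% of all tested genes (21.3% in either direction). The 3 PAP libraries lay wholly above the 3 Astro libraries for 2 of the 10 genes, Shmt2 and, by a gap within counting error (3.59 against 3.56 CPM), Shmt1, beside 10.9% of tested genes. They lay wholly below for 4, Phgdh, Psph, Gldc and Slc7a10, beside 35.1% (46.0% either way). The median log2 fold change of the 10 genes was -0.44, and that of all tested genes -0.53; 7 of the 10 had a negative value, beside 60.9% of tested genes. With the animal as a block in the model these medians were -0.52 and -1.63, and 0 of the 10 genes passed (0.91% of tested genes did, 0.876% higher and 0.0342% lower).

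**Figure D1:**
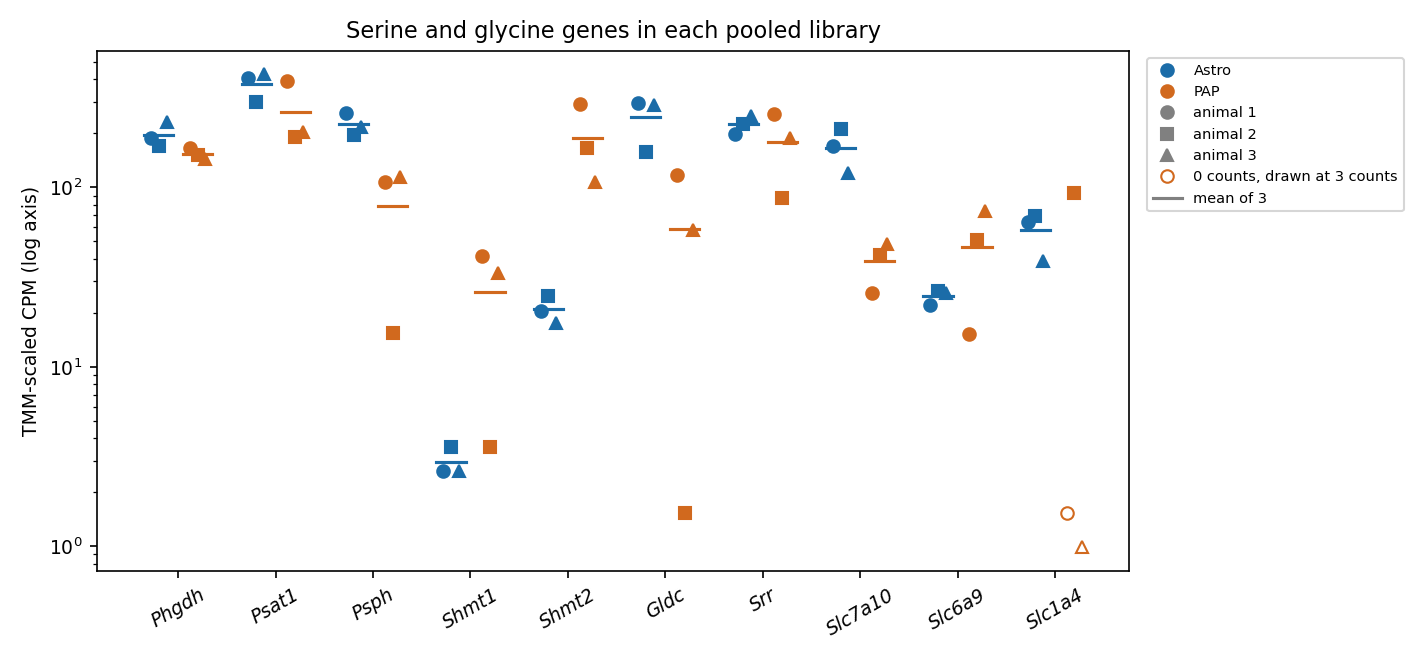
TMM-scaled CPM of the 10 genes (log axis) in each pooled library; blue is Astro, orange is PAP, the symbol gives the animal, the line is the mean of 3 libraries, and open symbols are libraries with 0 counts, drawn at the level of 3 counts. The PAP points of Shmt2 stand above its Astro points and those of Slc7a10 below, while Gldc, Psph and Shmt1 each have 1 PAP library, from animal 2, far under the other PAP libraries.

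Serine hydroxymethyltransferase 2, which makes glycine from serine in mitochondria, had the clearest difference. Shmt2 (ENSMUSG00000025403, chr10:127517123-127522444 on GRCm38) stood at 20.4, 24.9 and 17.6 CPM in Astro of animals 1, 2 and 3, from 382, 426 and 349 counts. In PAP it stood at 290.4, 166.7 and 107.2 CPM, from 572, 325 and 326 counts. The lowest PAP library was thus above the highest Astro library, and the pooled PAP count was similar to the Astro count although the Astro libraries were far deeper. The means were 20.98 ± 3.65 CPM in Astro and 188.1 ± 93.5 CPM in PAP (SD, n = 3 each), a ratio of 8.97. Fitted for PAP over Astro, the log2 fold change was 3.16 ± 0.54 (SE, 95% interval 1.87 to 4.46, edgeR adjusted p = 0.0208). It was positive in each animal, at 3.83, 2.74 and 2.60, and 5.41% of tested genes had a value as high. With the animal as a block the value was 3.06 and the adjusted p 0.188. The call was also lost without Astro library 1, 2 or 3, at adjusted p of 0.0847, 0.0864 and 0.0741.

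The cytosolic enzyme, Shmt1 (ENSMUSG00000020534, chr11:60788104-60811718), was scarce in Astro and uneven in PAP. Its Astro levels were 2.62, 3.56 and 2.63 CPM, from 49, 61 and 52 counts, and its PAP levels were 41.6, 3.59 and 33.2 CPM, from 82, 7 and 101 counts. PAP of animals 1 and 3 was thus far above every Astro library, whereas PAP of animal 2 was level with Astro of the same animal. The log2 fold change was 3.15 ± 1.14 (SE, 95% interval 0.41 to 5.90) and did not pass (edgeR adjusted p = 0.111). Without PAP library 2 it was 3.61 with an adjusted p of 0.0227, and DESeq2 with all libraries gave an adjusted p of 0.00496; these were the only 2 of its 14 alternatives in which it passed. With the animal as a block it was 2.72 (edgeR adjusted p = 0.464). To compare genes, TPM are used: counts divided by exonic length and scaled to a common total. Exonic length takes all annotated exons of a gene together, so it can exceed the length of the transcript present. In TPM, Shmt2 exceeded Shmt1 9.74-, 8.72- and 8.38-fold in Astro and 8.71-, 58.0- and 4.03-fold in PAP. Shmt2 was therefore the higher of the pair in all 6 libraries. Exonic bases shared with opposite-strand genes were few, 4.74% for Shmt1 (with Smcr8) and 1.03% for Shmt2 (with Ndufa4l2).

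The enzymes of the serine synthesis pathway ranged from nearly level between the compartments to about 3-fold lower in PAP, and none passed the test. Phgdh (ENSMUSG00000053398, chr3:98313170-98339990), which catalyses the first step, stood at 188.2, 170.5 and 231.4 CPM in Astro and 165.5, 151.8 and 143.4 CPM in PAP. All PAP values were under all Astro values, but by little: the means were 196.7 ± 31.3 and 153.6 ± 11.2 CPM (SD, n = 3 each). PAP over Astro gave a log2 fold change of -0.36 ± 0.30 (SE, 95% interval -1.08 to 0.37, edgeR adjusted p = 0.519). Phgdh was also the gene of the 10 that varied least among PAP libraries, with a highest-to-lowest ratio of 1.15.

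The aminotransferase Psat1 (ENSMUSG00000024640, chr19:15904678-15947337), the second enzyme of the pathway, stood at 406.9, 297.5 and 426.2 CPM in Astro and 392.5, 190.8 and 204.2 CPM in PAP. PAP of animal 1 lay within the Astro range and the other PAP libraries under it. The fitted log2 fold change was -0.52 ± 0.38 (SE, 95% interval -1.43 to 0.38, edgeR adjusted p = 0.437). Psph (ENSMUSG00000029446, chr5:129765558-129787449), the phosphatase of the last step, stood at 260.9, 194.7 and 218.1 CPM in Astro and 106.6, 15.4 and 114.1 CPM in PAP. Every PAP value was under every Astro value, and PAP of animal 2, with 30 counts, was well under the other PAP libraries. The fitted log2 fold change was -1.51 ± 0.72 (SE, 95% interval -3.25 to 0.23) and did not pass (edgeR adjusted p = 0.224; 0.206 with the animal as a block). Of its exonic bases, 10.4% are shared with Cct6a on the opposite strand.

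Within the pathway, the TPM ratio of Psat1 to Phgdh was 1.26, 1.02 and 1.08 in Astro and 1.39, 0.734 and 0.832 in PAP, so the 2 compartments overlapped. That of Psph to Phgdh was 0.796, 0.656 and 0.541 in Astro and 0.370, 0.0582 and 0.457 in PAP, lower in all PAP libraries. The ratio of Shmt2 to Phgdh moved from 0.0868, 0.117 and 0.0609 in Astro to 1.40, 0.878 and 0.598 in PAP. In Astro, Shmt2 was thus a small fraction of Phgdh, and in PAP it was of the same order. These ratios compare genes of 1 library and were given no test of their own.

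Glycine decarboxylase, Gldc (ENSMUSG00000024827, chr19:30098447-30175429), starts the breakdown of glycine by the mitochondrial glycine cleavage system. It stood at 296.1, 157.3 and 287.3 CPM in Astro, from 5539, 2693 and 5687 counts, and at 116.8, 1.54 and 57.6 CPM in PAP, from 230, 3 and 175 counts. The groups did not overlap, but the PAP libraries themselves spread widely, and PAP of animal 2 had counts in only 2 of its 8 technical replicates. The log2 fold change was -2.07 ± 1.19 (SE, 95% interval -4.94 to 0.79) and did not pass (edgeR adjusted p = 0.317; -3.06 and 0.206 with the animal as a block). It was -3.10 without PAP library 1 and -1.56 without PAP library 2.

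Serine racemase, Srr (ENSMUSG00000001323, chr11:74906359-74925948), was present in every library. It stood at 198.4, 224.8 and 250.0 CPM in Astro and 257.4, 87.7 and 189.4 CPM in PAP. The highest and the lowest of the 6 values were both from PAP, so the groups overlapped. PAP over Astro gave a log2 fold change of -0.33 ± 0.44 (SE, 95% interval -1.40 to 0.74, edgeR adjusted p = 0.704), an interval that spans both a fall and a rise. In Srr, 27.2% of the exonic bases are shared with Tsr1 on the opposite strand, and the strand setting of the counting is not given in the sources used here, so its reads cannot be fully told apart from those of its neighbour.

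Among the carriers, Slc7a10 fell. Asc-1, its product, exchanges small neutral amino acids, glycine and D-serine included. Slc7a10 (ENSMUSG00000030495, chr7:35186385-35201114) stood at 170.0, 210.2 and 119.9 CPM in Astro, from 3181, 3599 and 2374 counts. In PAP it stood at 25.9, 42.1 and 48.3 CPM, from 51, 82 and 147 counts, so all PAP libraries were well under all Astro libraries. The means were 166.7 ± 45.2 and 38.8 ± 11.6 CPM (SD, n = 3 each), 4.3-fold lower in PAP. The fitted log2 fold change was -2.10 ± 0.47 (SE, 95% interval -3.23 to -0.97, edgeR adjusted p = 0.0241), negative in each animal at -2.71, -2.32 and -1.31. A value as low was not rare: 24.6% of tested genes had one, and the astrocyte markers had a median of -1.61. The call was lost with the animal as a block (-2.12, adjusted p = 0.206), with limma's voom (adjusted p = 0.460), and without Astro library 1, 2 or 3 (adjusted p of 0.115, 0.151 and 0.0844). Of its exonic bases, 17.9% are shared with Lrp3 on the opposite strand.

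The glycine transporter gene Slc6a9 (ENSMUSG00000028542, chr4:117834506-117875198) stood at 22.0, 26.6 and 25.7 CPM in Astro and 15.2, 50.8 and 74.0 CPM in PAP. PAP of animal 1 was under every Astro library and the other PAP libraries above them. The fitted log2 fold change was 0.92 ± 0.77 (SE, 95% interval -0.95 to 2.78, edgeR adjusted p = 0.520). Of its exonic bases, 27.8% are shared with Ccdc24 and 9.94% with Gm17114, both on the opposite strand. In TPM, Slc6a9 stood at 0.0531, 0.0519 and 0.0879 of Slc7a10 in Astro and at 0.242, 0.496 and 0.629 in PAP, so Slc7a10 remained the higher of these carriers in all 6 libraries.

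Slc1a4 (ENSMUSG00000020142, chr11:20302180-20332713), whose product carries serine, alanine and other neutral amino acids, was the most irregular of the 10. It stood at 64.2, 69.7 and 39.0 CPM in Astro, from 1200, 1193 and 771 counts. In PAP it had 0 counts in animals 1 and 3, in all 8 technical replicates of each, and 181 counts or 92.8 CPM in animal 2, spread over all 8 technical replicates. A count of 0 allows up to 1.52 CPM in PAP of animal 1 and 0.987 CPM in PAP of animal 3. The 2 libraries without counts were thus far under every Astro library, while the remaining PAP library was above them all. The log2 fold change was -0.90 ± 2.15 (SE, 95% interval -6.08 to 4.29, edgeR adjusted p = 0.848). It was -6.59 with the animal as a block (edgeR adjusted p = 0.321) and -4.93 with limma's voom. Without PAP library 2 the adjusted p was 0.0225, a fit against 2 libraries at 0 whose fold change is no bound.

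**Figure D2:**
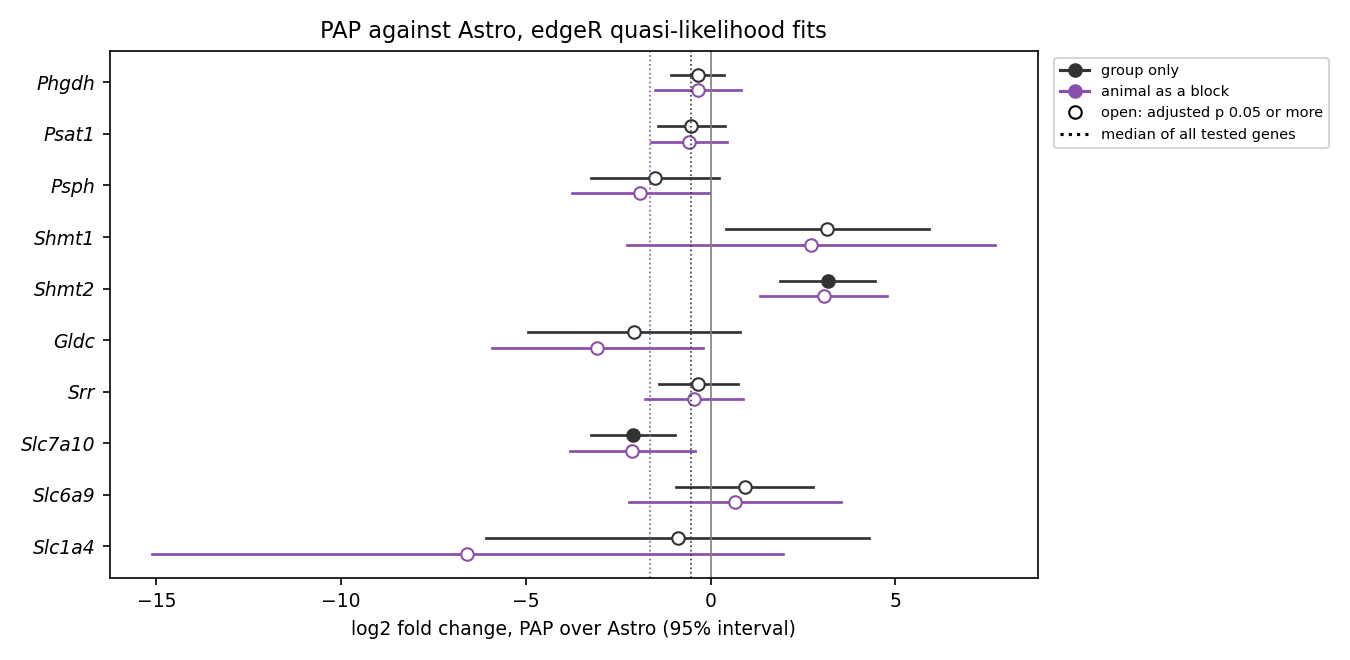
Log2 fold change of PAP over Astro with its 95% interval for each of the 10 genes, from the edgeR model of group alone (black) and with the animal as a block (purple); filled points passed an adjusted p of 0.05 and dotted lines mark the median of all tested genes in each fit, -0.53 and -1.63. Shmt2 and Slc7a10 passed in the first fit, none of the 10 in the second, and every gene had the same sign in both.

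Levels of different genes were compared per length, in TPM. In Astro the order was Psat1 at 223.7 ± 55.4, Phgdh at 200.0 ± 48.5, Slc7a10 at 195.1 ± 39.2, Psph at 130.1 ± 21.8, Srr at 123.9 ± 22.9, Gldc at 102.7 ± 36.8, Slc1a4 at 36.2 ± 7.93, Shmt2 at 16.8 ± 1.76, Slc6a9 at 12.1 ± 1.60 and Shmt1 at 1.88 ± 0.254 TPM (SD, n = 3). Neighbours among the first 3 overlapped in their ranges, as did those from Psph to Gldc, while Slc7a10 lay apart from Psph and every neighbour from Gldc down to Shmt1 lay apart. The Astro order thus held the first enzymes of serine synthesis and Asc-1 at the top, and both hydroxymethyltransferases among the last.

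In PAP the order was Psat1 at 144.4 ± 63.8, Phgdh at 144.1 ± 11.9, Shmt2 at 141.5 ± 71.9, Srr at 91.4 ± 44.7, Slc7a10 at 42.7 ± 12.5, Psph at 42.6 ± 29.8, Gldc at 22.6 ± 22.4, Slc6a9 at 21.1 ± 13.3, Slc1a4 at 18.2 ± 31.5 and Shmt1 at 15.8 ± 12.1 TPM (SD, n = 3). The ranges of all neighbours overlapped. Shmt2 moved from the eighth place of the 10 to the third. Among all genes ranked by TPM, it stood at 6439, 5686 and 6884 in Astro of animals 1, 2 and 3 and at 622, 1269 and 1982 in PAP.

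As a share of the summed TPM of the 10 genes, Shmt2 took 1.52%, 2.05% and 1.34% in Astro and 24.7%, 22.6% and 13.1% in PAP. Slc7a10 took 18.6%, 25.5% and 13.4% in Astro and 3.24%, 8.41% and 8.70% in PAP. Phgdh took 17.5%, 17.6% and 22.0% in Astro and 17.6%, 25.8% and 21.9% in PAP, ranges that overlap. The summed TPM of the 10 genes itself was 1055, 914.8 and 1157 in Astro and 893.9, 547.4 and 612.1 in PAP, so each PAP library was under each Astro library on this scale. As a share of all counts the groups overlapped, with 0.1502%, 0.1263% and 0.1642% in Astro and 0.152%, 0.0854% and 0.0991% in PAP.

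**Figure D3:**
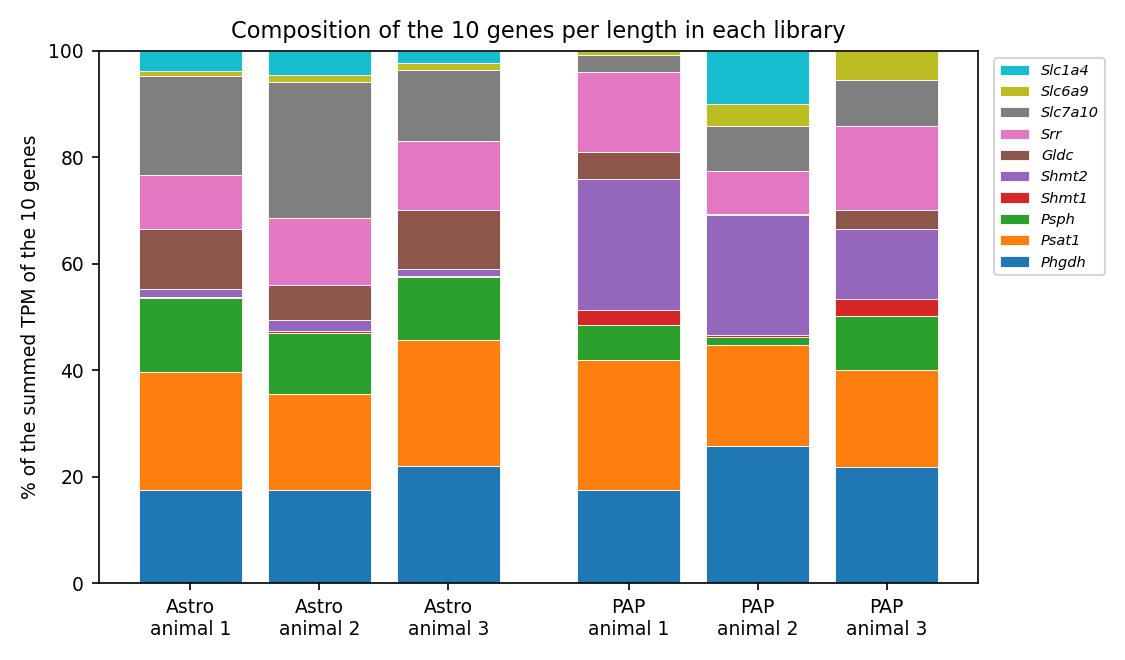
Stacked bars of the share (%) that each of the 10 genes takes of their summed TPM in each pooled library. Shmt2 widens from 1.34% to 2.05% in Astro to 13.1% to 24.7% in PAP, Slc7a10 narrows, and Slc1a4 is present in PAP of animal 2 alone.

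The enzymes and receptors around these genes were examined through 5 lists with 65 genes, of which 54 were tested. In all, 2 were called higher in PAP, Mthfd2 and Grin2a, and 5 lower, Aldh1l1, Slc25a32, Gnmt, Dmgdh and Gatm, and the median log2 fold change was -0.39. Among the 5 called lower, 3 had at most 3 counts in each PAP library. These 3 passed the count filter through the Astro libraries alone, so they could only be called lower. The numbers of genes called stand beside the same 5.92% higher and 15.4% lower among all tested genes.

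The folate cycle takes up the carbon that Shmt2 removes from serine. Of 18 genes 16 were tested, with 1 called higher and 4 lower (median log2 fold change -1.26, and -2.74 with the block). Mthfd2, the mitochondrial dehydrogenase and cyclohydrolase that acts on the folate product of Shmt2, stood at 9.03, 11.4 and 14.3 CPM in Astro and 432.6, 264.1 and 336.4 CPM in PAP. All PAP libraries were thus far above all Astro libraries, with a ratio of means of 29.8. PAP over Astro gave a log2 fold change of 4.89 ± 0.42 (SE, edgeR adjusted p = 0.0029). It passed with the animal as a block too (adjusted p = 0.0281), as the only called gene of the lists that did. The part of RNA from other cells in the Shmt2 and Mthfd2 results was not tested.

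Mthfd2l, the related mitochondrial enzyme encoded by another gene, went the other way in its values, with 78.4, 91.0 and 67.0 CPM in Astro and 9.65, 0 and 10.2 CPM in PAP. It did not pass (log2 fold change -3.57 ± 1.39 SE, edgeR adjusted p = 0.136). Aldh1l1, a cytosolic folate dehydrogenase and the gene whose promoter drives the transgene, fell from 230.5, 223.0 and 248.9 CPM in Astro to 49.8, 83.1 and 109.8 CPM in PAP. Its log2 fold change was -1.53 ± 0.40 (SE, edgeR adjusted p = 0.0378). The call was lost with the block (0.206), without Astro library 1, 2 or 3 (0.152, 0.151 and 0.161) and without PAP library 2 (0.0544), and under 4 other settings (0.0509 to 0.193: library size alone, no filter on low counts, a mean of at least 100 counts, and limma's voom). The mitochondrial folate carrier Slc25a32 stood at 11.3, 14.4 and 8.59 CPM in Astro and at 0 counts in PAP, at least 8.48-fold lower against a level of 3 counts per library (edgeR adjusted p = 0.0208, 0.206 with the block). Without Astro library 1, 2 or 3 its adjusted p was 0.0877, 0.0864 and 0.0771. Gnmt and Dmgdh were called on Astro levels of 1.82 to 3.74 and 1.11 to 1.55 CPM against 0 counts in PAP; for Gnmt this was at least 1.85-fold, while Dmgdh was at the level of 3 PAP counts in Astro, so no fold is given. With the block neither passed (edgeR adjusted p = 0.206 each), and neither did without a filter on low counts (0.0505 and 0.0729). Dmgdh also missed the threshold without PAP library 3 (0.0519) and with DESeq2 (0.0501). Both fell under the count filter when an Astro library was left out. Sardh, among the highest of the list in Astro, had 95.6, 80.8 and 76.2 CPM there and 38.6, 0 and 54.9 CPM in PAP (edgeR adjusted p = 0.608).

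The 3 partner subunits of Gldc in the glycine cleavage system did not pass (0 of 3 called, median log2 fold change -0.65, and -1.23 with the block). Gcsh, the carrier protein, stood at 360.2, 381.7 and 334.4 CPM in Astro and 125.4, 60.0 and 498.2 CPM in PAP (edgeR adjusted p = 0.647). Dld, the dehydrogenase subunit shared with other complexes, stood at 199.7, 162.9 and 250.2 CPM in Astro and 162.0, 491.9 and 113.5 CPM in PAP (adjusted p = 0.793). Both had PAP libraries above and below the Astro range. Amt, the aminomethyltransferase, named to complete the list after its values were seen, was scarce, at 10.2, 9.34 and 8.49 CPM in Astro and 0, 4.62 and 1.97 CPM in PAP, so its PAP libraries were all lower (edgeR adjusted p = 0.343).

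Of 20 genes whose products use serine or glycine, 15 were tested, with 0 called higher and 1 lower (median log2 fold change -0.29, and -1.73 with the block). Gatm, which starts creatine synthesis from glycine and arginine, fell from 234.8, 263.1 and 232.9 CPM in Astro to 51.3, 90.3 and 62.8 CPM in PAP. The means were 3.58-fold lower in PAP and the log2 fold change was -1.84 ± 0.36 (SE, edgeR adjusted p = 0.0208, 0.206 with the block). Without Astro library 1, 2 or 3 the adjusted p was 0.0962, 0.0989 and 0.0873, and with limma's voom 0.146. Serinc1, a membrane protein linked to serine incorporation into lipids, stood at 471.1, 438.4 and 282.2 CPM in Astro and 229.0, 685.2 and 61.5 CPM in PAP (edgeR adjusted p = 0.868). Its relative Serinc3 stood at 182.0, 193.6 and 102.1 CPM in Astro and 316.3, 180.5 and 309.5 CPM in PAP (edgeR adjusted p = 0.273).

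Of 14 other carriers of serine or glycine, 12 were tested and 0 were called in either direction (median log2 fold change 0.17, and -0.08 with the animal as a block). The glutamine carrier Slc38a3 stood at 270.8, 270.1 and 133.7 CPM in Astro and 0, 75.4 and 112.1 CPM in PAP. These groups did not overlap, yet the PAP spread was wide and the gene did not pass (edgeR adjusted p = 0.494). Sfxn1, the mitochondrial serine carrier that supplies Shmt2 with substrate, stood at 282.0, 325.4 and 273.7 CPM in Astro and 284.3, 261.1 and 460.8 CPM in PAP. It overlapped between the groups (edgeR adjusted p = 0.765).

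Of 10 NMDA and glycine receptor genes, whose products bind D-serine or glycine or assemble with subunits that do, 8 were tested, with 1 called higher and 0 lower (median log2 fold change 0.62, and 0.07 with the block). Grin2a, an NMDA receptor subunit of neurons, rose from 13.5, 20.2 and 18.0 CPM in Astro to 75.1, 92.8 and 134.8 CPM in PAP, a ratio of means of 5.86. The fitted log2 fold change was 2.55 ± 0.55 (SE, edgeR adjusted p = 0.0223). It did not pass with the block (0.206), without any filter on low counts (0.0646), or without Astro library 1, 2 or 3 (0.121, 0.0989 and 0.101). Other neuronal genes, picked for mention after their values were seen, went in both directions. Grin1, which encodes the obligatory NMDA receptor subunit, stood at 10.4, 11.5 and 12.3 CPM in Astro and 29.5, 44.1 and 39.1 CPM in PAP (edgeR adjusted p = 0.154). Of the 12 neuron markers, 8 had a negative log2 fold change (median -0.74), beside 60.9% of all tested genes (median -0.53). The PAP libraries lay wholly above the Astro libraries for Syt1 (log2 fold change 1.40, edgeR adjusted p = 0.0414) and Camk2a (2.26, adjusted p = 0.0663). They lay wholly under them for Snap25 (-2.23, edgeR adjusted p = 0.0296), Tubb3, Gad2 and Map2, of which only Snap25 was called. With the animal as a block neither Syt1 nor Snap25 passed (edgeR adjusted p = 0.206 and 0.127). The part of neuronal RNA in the Grin2a result was not tested. Grin2c, the subunit gene with the highest Astro level of the list, stood at 143.3, 129.3 and 104.2 CPM in Astro and 0, 167.7 and 15.1 CPM in PAP (edgeR adjusted p = 0.754). Glrb, the beta subunit of glycine receptors, stood at 129.5, 138.9 and 89.0 CPM in Astro and 90.9, 0 and 164.8 CPM in PAP (edgeR adjusted p = 0.886). Both were at 0 in 1 PAP library and above the Astro range in another.

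**Figure D4:**
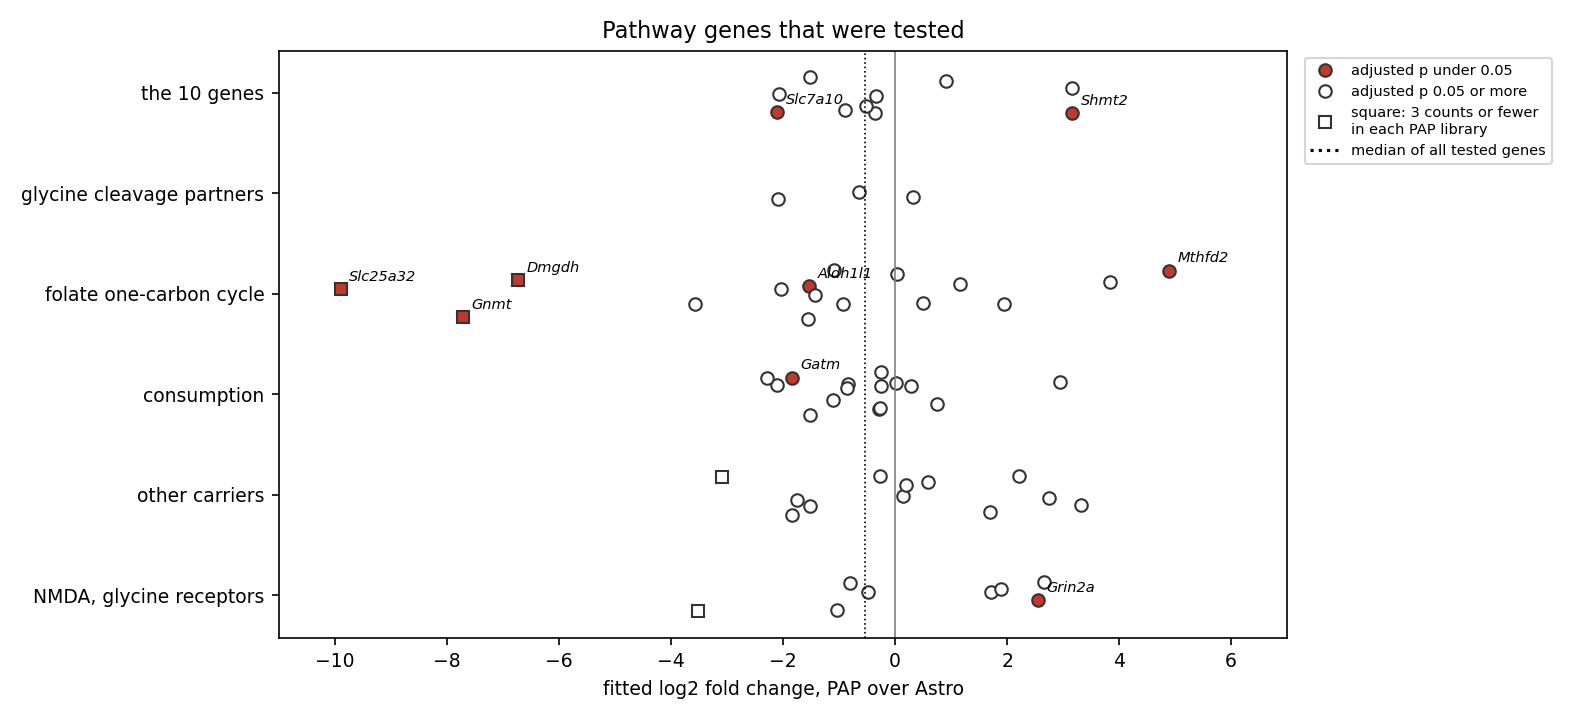
Fitted log2 fold change of PAP over Astro (horizontal axis) for the tested genes of the 5 pathway lists and the 10 genes, 1 point a gene, spread vertically only to separate points; red passed an adjusted p of 0.05, squares had 3 counts or fewer in each PAP library, so that their fitted value is no bound, and the dotted line is the median of all tested genes, -0.53. Shmt2 and Mthfd2 stand at the right at 3.16 and 4.89, Grin2a at 2.55, and the called lower genes at the left.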

How the data were processed

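RNA on tagged astrocyte ribosomes was amplified with SMART-Seq v4 and sequenced from Nextera XT libraries, per the labels' protocols. The deposited files hold raw counts per Ensembl gene, whole numbers with no scaling by the authors. The submitters' processing notes name bcl2fastq 2.18.0.12, Trim Galore 0.4.1, STAR 2.5.2b, SAMtools, HTSeq 0.5.3 and the build mm10, with no role or order; the annotation release and the strand setting are not given in the sources used here. Without molecular identifiers named, floors of 3 counts cover counting error only.

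Counts were summed over the 8 technical replicates to 1 pooled library per animal and compartment. Symbols, coordinates (1-based) and exonic lengths came from GENCODE M21 on GRCm38, which held 47224 of 47643 IDs. Genes passing filterByExpr (minimum count 10) were scaled by TMM and tested with edgeR 4.0.16 in R 4.3.3 with group alone as the term. TPM were computed from counts and exonic lengths, the latter over all annotated exons of a gene together. The labels number the animals (C1 to C3), and each gave a library of either compartment, which is where the pairing comes from; deviations of paired libraries from their group means correlated at 0.033, 0.018 and -0.027. An edgeR fit blocked by animal, limma 3.58.1 (voom) and DESeq2 1.42.0 were alternatives. On simulated data with few changed genes, the test recovered large changes at a low dispersion and not at the dispersion of these libraries. In the real data 21.3% of tested genes were called, so the recovery in the simulation need not hold for them. A gene that did not pass may still differ. Promoter windows came from RefSeq on GRCm38.p6.

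Named are the 10 genes and, of each pathway list, those called and the 2 highest by mean Astro CPM besides; Amt, Dao and Grin1 and single neuron markers were added after their values were seen. The members, lists and motifs were chosen with earlier results of these data known.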

Additional observations from a re-analysis of the deposited data

How the results depend on the processing

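All 10 genes kept the direction of their log2 fold change in each alternative that gave a value, 14 for Shmt1 and 16 for each other gene. Shmt2 passed in 12 of 16 (adjusted p from 7.99e-07 to 0.188) and Slc7a10 in 11 of 16 (0.000409 to 0.460). With the animal as a replicate block, 133 genes in all were called, and of the 10 genes 0 higher and 0 lower, of the pathway lists 1 higher and 0 lower. DESeq2 called 4750 genes, with 2 of the 10 genes and 4 pathway genes higher; voom called 0 of the 10 genes lower. Pathway genes called lower numbered 2 with no filter on low counts, 2 with a mean of at least 100 counts, and 3 each with libraries thinned to equal depth, technical replicates 1 to 4 or 5 to 8; with no filter, 1 was higher. Leaving out each library in turn gave 115 to 4586 calls over all genes, 0 to 2 of the 10 genes higher and 0 to 2 lower, and 1 to 4 pathway genes higher and 0 to 8 lower. The cause of these differences was not tested. The all-gene median of -0.53 became -0.38 with library size alone, -0.46 with DESeq2 size factors, -0.13 with the DESeq2 test, -0.23 with thinned libraries, -0.32 with a mean of at least 100 counts, -1.04 with no filter, -1.62 with voom, -1.63 with the block and -0.95 to -0.37 without single libraries. In PAP, levels under 0.987 to 1.54 CPM could not be told from 0.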

Other observations

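The oxidase that breaks down D-serine, Dao, was close to absent from both compartments; it was picked for mention after its values were seen. It had 8, 2 and 19 counts in Astro and 0 in each PAP library, too few to be tested. At this depth a count of 0 in PAP allows 0.987 to 1.54 CPM, which is above the Astro levels of 0.428, 0.117 and 0.960 CPM, so no difference was detectable.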
